A study of Mus musculus with 3 samples.

Results

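The cells described here came from the 4 dpi library and were chosen by their measured count of Neurog2, after every cell had been brought to the same depth. Of 4602 deposited barcodes, 4492 had at least 500 genes and at most 20% of their unique molecular identifiers (UMIs) from mitochondrial genes. Of these, 2733 had at least 2000 UMIs and were randomly thinned to 2000 UMIs each, and 1759 were shallower and were not used. After thinning, 361 cells had 2 or more Neurog2 UMIs and 1695 had 0, and these 2056 cells form the groups compared. The whole series held 10522 kept cells in 3 libraries, 1 per group. Since Neurog2 chose the cells, its own difference between the groups is a description and no result. Counts are of cells from 1 library, so no p-value is given and intervals cover counting error only.

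All cells came from cultures of mouse embryonic fibroblasts of genotype Hb9::GFP. In these, control sequence of Mnx1, a motor neuron gene also known as Hb9, drives a green fluorescent protein. The cultures were all given LNI, a cassette of Lhx3, Neurog2 and Isl1, and DDRR. DDRR expresses activated HRAS(G12V) and p53DD, a dominant-negative piece of p53. Whether each single cell carries these constructs is not known. The 4 dpi culture had the supplements BDNF, CNTF, GDNF, FGF and RepSox, an inhibitor of a TGF-beta receptor kinase. It was released with trypsin and sorted for live cells of low CellTrace-FarRed, a dye that cell division dilutes. The other libraries, at 14 dpi with and without the supplements, were released with papain and DNase and sorted as Hb9::GFP-positive. All 3 share a batch date. The sources used here do not give how many embryos or clones the fibroblasts came from, or which promoter drives the cassette.

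Neurog2 is a proneural transcription factor of the basic helix-loop-helix (bHLH) family. In the embryo it is switched on briefly in neural progenitors, binds E-box DNA with a partner E protein, and turns on a cascade of further bHLH and zinc-finger factors as cells leave the cycle. Delivered with the LIM-homeodomain factors Lhx3 and Isl1, it drives fibroblasts and stem cells toward a motor neuron state. The mouse gene (ENSMUSG00000027967) lies on the plus strand at chr3:127633135-127635631 of GRCm38 and has 2 exons. The counts do not split introduced from endogenous Neurog2, nor do they for Lhx3, Isl1, Hras or Trp53.

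The E-box CAGATG is a form that Neurog2 is known to bind, and it was looked for on both strands of RefSeq promoters (250 bases before to 50 after a gene's start, GRCm38.p6). Of the 15 genes with the highest ratios described below, 11 matched a promoter and 4 of these held CAGATG: Nhlh2, Lhx3, Rgs4 and Elavl4. Of the 15 with the lowest ratios, 6 matched and 2 held it, Igfbp3 and Apod. Over all 27025 genes with a promoter, 19.2% held it. The related words CAGCTG and CATATG were in 4 and 0 of the 11, in 1 and 0 of the 6, and in 18.3% and 4.48% of all genes. A match is a string of letters and no measured binding. The 30-base windows around the matches in the higher genes are shown so that the letters can be read beside the values. They run 5′ to 3′ along the gene's strand, and capitals mark the E-box, which reads CATCTG where CAGATG is on the opposite strand. The Nhlh2 window is chr3:102010006-102010035, with its E-box starting 127 bases before the transcription start used for that promoter. Such a start need not be the outermost of a gene. Lhx3 is at chr2:26206773-26206802, which lies inside the gene (chr2:26200212-26208289, minus strand). Rgs4 is at chr1:169747688-169747717, and Elavl4 at chr4:110287549-110287578 and, for another of its starts, chr4:110286918-110286947.
Nhlh2: cccacactgtgaCAGATGtcaagtccaatt
Lhx3: ggcaggggcgagCATCTGtaggaagccttg
Rgs4: ctgcagacctgtCATCTGattggctgccgg
Elavl4, start 1: ggcttcagctgaCAGATGgtcccataaatg
Elavl4, start 2: attacttgagacCATCTGagggggtggaag

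Most cells at this depth had no Neurog2 UMI, and few had many. Of the 2733 cells, 62.0% had 0 (interval 60.2 to 63.8), 24.8% had 1 and 13.2% had 2 or more (12.0 to 14.5). The cells just inside the threshold were the 226 with exactly 2 UMIs, and the 677 with exactly 1 lay just outside and entered neither group. The remaining 135 members had 3 or more, up to a highest count of 7. The mean was 0.591 UMIs per cell and the variance 0.908, a Fano factor (variance over mean) of 1.54, where Poisson counting alone gives 1. At 14 dpi the same depth gave fewer such cells: 104 of 2231 with supplements, 4.66%, and 95 of 3657 without, 2.60%. Stage, gate and dissociation differ together between 4 and 14 dpi, as do supplements for the library without them, and cannot be told apart.

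The UMIs that thinning set aside were not used for the split and show what it separates. In them, Neurog2 was at 228 CPM (counts per 1e+06 UMIs; interval 209 to 248) in the cells with 0 and at 386 CPM (350 to 424) in the cells with 1. It was at 591 CPM (514 to 676) in the cells with 2 and at 734 CPM (633 to 848) in the cells with 3 or more. The order of the 4 classes was thus the same in the unused UMIs. Over all members with 2 or more the value was 650 CPM (588 to 717), against 1301 CPM in the thinned UMIs that chose them. A Neurog2 UMI was among those set aside in 22.1% of the cells with 0 and in 49.6% of the cells with 2 or more. A count of 0 after thinning thus does not mark a cell without Neurog2 UMIs, and how much of this level is free RNA was not tested. Median depth before thinning was 2977 and 3148 UMIs in these groups.

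**Figure D1:**
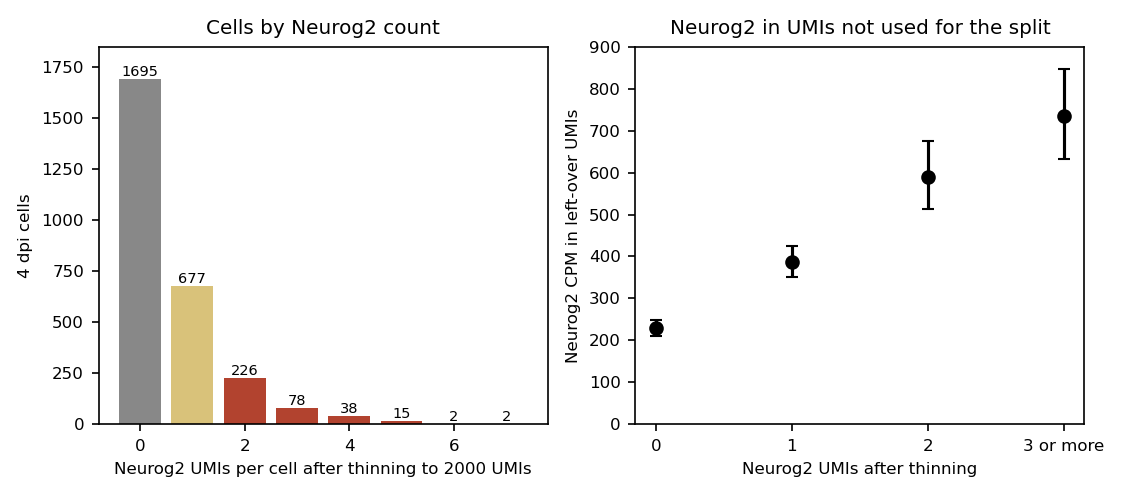
Left, number of 4 dpi cells (y axis) by Neurog2 UMIs per cell after thinning to 2000 UMIs (x axis), with grey for 0, yellow for 1 and red for 2 or more. Right, Neurog2 level in the UMIs left over by thinning (CPM, y axis) for 4 classes of the thinned count (x axis), with points for the summed level and bars for its 95% Poisson interval; it runs from 228 CPM in the cells with 0 to 734 CPM in those with 3 or more.

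The groups were close in gene number and mitochondrial share and differed in ribosomal protein transcripts and doublet scores. Median genes per thinned cell were 1078 with 0 Neurog2 UMIs and 1113 with 2 or more, and mitochondrial genes took a median of 3.60% and 3.62% of UMIs. Transcripts of ribosomal protein genes took 21.3% and 18.9% of UMIs. The share of cells in the top 5% of doublet scores was 5.96% and 2.77%. The 4 dpi library shared 5 and 4 cell barcodes with the 14 dpi libraries with and without supplements. To show what free RNA can give, shares of cells with a UMI are set beside those of the 284 reference cells, the tenth of 4 dpi cells with the most fibroblast-marker UMIs. Their median depth before thinning was 2528 UMIs, against 3065 for all cells. Neurog2 itself had a UMI in 13.4% of the reference cells and in 40.8% of the others, and whether the reference cells carry the cassette is not known.

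Cells with 2 or more Neurog2 UMIs had higher levels of the cassette's partners and of part of a neuronal programme. They had lower levels of fibroblast matrix genes and interferon-response genes. At a mean of at least 20 CPM, 6146 features were compared, and 611 of them (9.94%) were higher by 1.5-fold or more and 445 (7.24%) lower by that much. The median log2 ratio of all 6146, cells with 2 or more over cells with 0, was 0.10, and every ratio below should be read against that shift. Centred on it, 404 features were higher and 562 lower, so that the majority passes from the higher to the lower side. As a whole, a set of neuron markers (Tubb3, Stmn2, Dcx, Map2, Elavl3, Elavl4, Gap43 and Snap25) differed little in the share of cells. Any UMI of it was in 62.3% of cells with 2 or more Neurog2 UMIs and 54.0% with 0. The median was 1 UMI in both groups. Its summed level was 542 CPM with 0, 719 with 1, 825 with 2 and 719 with 3 or more. Gap43 was the only member of the set that was lower with 2 or more Neurog2 UMIs. It gave 697 of the set's 1836 UMIs with 0 and 66 of 567 with 2 or more. The sum therefore understates the difference in the other members.

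Among the 15 highest ratios at a mean of at least 50 CPM were transcription factors, RNA-binding and cytoskeletal proteins of neurons, and a neuropeptide. The highest was Nhlh2, a bHLH factor of early neurons, with a log2 ratio of 2.14 (1.73 to 2.54). Next came v.EGFP at 2.02, which is taken here and below to be the transcript of the Hb9::GFP reporter. After it stood Igfbpl1, which belongs to the insulin-like growth factor binding protein family, at 1.83, and Lhx3 at 1.74. Cntn2, an axonal adhesion molecule, was at 1.72 and Isl1 at 1.69. Further genes were Rgs4, a regulator of G-protein signalling (1.68), Crybg3 (1.57) and Elavl4, a neuronal RNA-binding protein (1.51). They were followed by Bhlhe22, a bHLH repressor (220 against 77.9 CPM), Ina, the neurofilament protein internexin (1.47), Bex1 (1.45), Dennd11 (1.45) and Gal, the neuropeptide galanin (1.44). The 15 lowest included genes of the matrix (Mgp, Col1a1, Dcn) and interferon-inducible genes (Ifi204, Parp14, Ifi27l2a). They ran from H19, an imprinted noncoding RNA, at -3.57 (-4.79 to -2.58) to Lrp1, an endocytic receptor, at -1.77. Between these stood Ccl7 (-3.50), Ifi204 (-2.64), Mgp (-2.62), Thy1 (-2.47), Parp14 (-2.20), Col1a1 (-2.12) and Itm2a (-2.03). The rest were S100a4 (-1.98), Dlk1 (-1.97), Dcn (-1.90), Igfbp3 (-1.84), Ifi27l2a (-1.83) and Apod (-1.78).

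**Figure D2:**
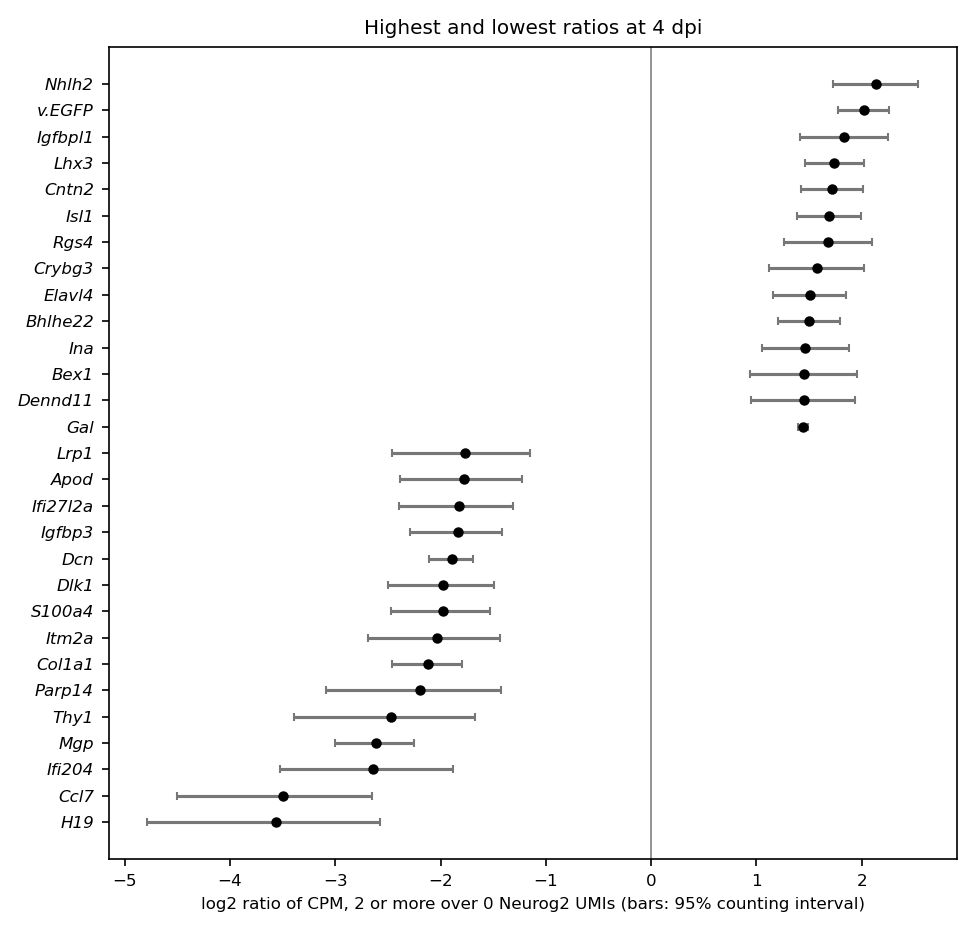
log2 ratio of CPM in cells with 2 or more Neurog2 UMIs over cells with 0 (x axis) for 14 of the 15 highest and the 15 lowest genes at 4 dpi (y axis), with bars for the 95% counting interval. The ratios run from 2.14 for Nhlh2 to -3.57 for H19, and galanin has the narrowest interval.

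Lhx3 and Isl1, delivered in the same cassette as Neurog2, were higher with it step by step. Lhx3 was at 75.5 CPM in cells with 0 Neurog2 UMIs, 154 with 1, 215 with 2 and 315 with 3 or more. Isl1 was at 65.2, 114, 184 and 256 CPM in the same classes. Each step is in the same direction for both genes. A Lhx3 or Isl1 UMI was present in 191 of the 361 cells, 52.9%, and in 365 of the 1695, 21.5%. Both were present in 12.2% and 3.01%. Lhx3 had a UMI in 32.7% and 12.9% of the groups and in 4.58% of reference cells, and Isl1 in 32.4%, 11.7% and 2.46%.

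The reporter and the genes behind the DDRR construct did not follow one pattern. v.EGFP stood at 374 CPM against 92.3 CPM, but 5 of the 361 cells held 34.8% of its UMIs in the higher group. A v.EGFP UMI was found in 43 cells, 11.9%, against 59 cells, 3.48%, and in none of the reference cells. Mnx1, whose control sequence drives the reporter, had 1 UMI in the higher group and 0 in the other, too few to compare. Hras was at 108 and 127 CPM, a log2 ratio of -0.23 (-0.60 to 0.12), and Trp53 at 251 and 209 CPM, a ratio of 0.26 (0.02 to 0.50).

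Genes that act with or after proneural factors were mostly higher. Of 41 listed genes 19 passed the 20 CPM floor, 13 were higher by 1.5-fold or more and 0 lower by that much, and their median log2 ratio was 0.96. Summed over the list, a median cell had 9 of its 2000 UMIs from these genes with 2 or more Neurog2 UMIs, 7 with 1 and 5 with 0. Nhlh2 went from 32.2 CPM with 0 to 68.7 with 1, 126 with 2 and 167 with 3 or more, and had a UMI in 4.96% of cells with 0, 19.9% with 2 or more and 0.352% of reference cells. It was thus higher at each step of the Neurog2 count. Neurod1, a bHLH factor that carries the cascade forward, was at 155 CPM against 60.5 CPM, a log2 ratio of 1.36 (1.01 to 1.70). By class it was at 108 CPM with 1 UMI, 162 with 2 and 144 with 3 or more, and the last values are within each other's intervals. Bhlhe22 had a UMI in 31.3% and 11.6% of the groups and in 0.352% of reference cells. Hes6, a bHLH protein that relieves Hes1 repression, was at 256 and 114 CPM, a ratio of 1.17 (0.91 to 1.43). Sstr2, a somatostatin receptor, was at 58.2 and 20.4 CPM. Neurod4 had only 10 and 7 UMIs, 13.8 and 2.07 CPM, which gives a ratio of 2.75 (1.20 to 4.38).

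The Notch pathway, through which neighbouring cells hold one another back from becoming neurons, was too thinly sampled to describe well. Of 21 genes 3 passed the floor, with 1 higher by 1.5-fold or more and 1 lower by that much. Dlk1, an imprinted non-canonical ligand, was at 49.9 CPM against 196 CPM. The ligands Dll1 (4 and 18 UMIs) and Dll3 (4 and 11 UMIs), which Neurog2 is known to switch on, had ratios of 0.06 (-1.96 to 1.66) and 0.77 (-1.33 to 2.53), intervals that span a ratio of 1 widely. The receptor gene Notch1 was at 45.7 and 30.1 CPM, a ratio of 0.60 (-0.01 to 1.18) that was -0.31 without cells holding a Mki67 or Top2a UMI, and Rbpj, the DNA-binding partner of the Notch fragment, at 136 and 185 CPM, a ratio of -0.45 (-0.77 to -0.14). Hes1, the classic Notch target, had 3 and 40 UMIs.

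Inhibitors of bHLH factors were not lower as a group. Of 11 genes 6 passed the floor, 2 higher by 1.5-fold or more and 1 lower by that much, with a median of 0.11, close to that of all features. The Id proteins bind E proteins and keep them from partnering proneural factors. Id2 was at 207 CPM with 0 Neurog2 UMIs, 371 with 1, 511 with 2 and 581 with 3 or more, and the ratio of the groups was 1.38 (1.20 to 1.56). Id1 was at 219, 335, 372 and 344 CPM, a ratio of 0.73 (0.52 to 0.93). Id3 was at 127, 137, 146 and 163 CPM, a ratio of 0.26 (-0.05 to 0.57). The 3 Id genes therefore differ in size, with Id2 the highest. Twist2, a mesenchymal bHLH factor, was at 26.3 against 41.6 CPM, a ratio of -0.66 (-1.43 to 0.04) that was 0.077 at a depth of 1500 UMIs.

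**Figure D3:**
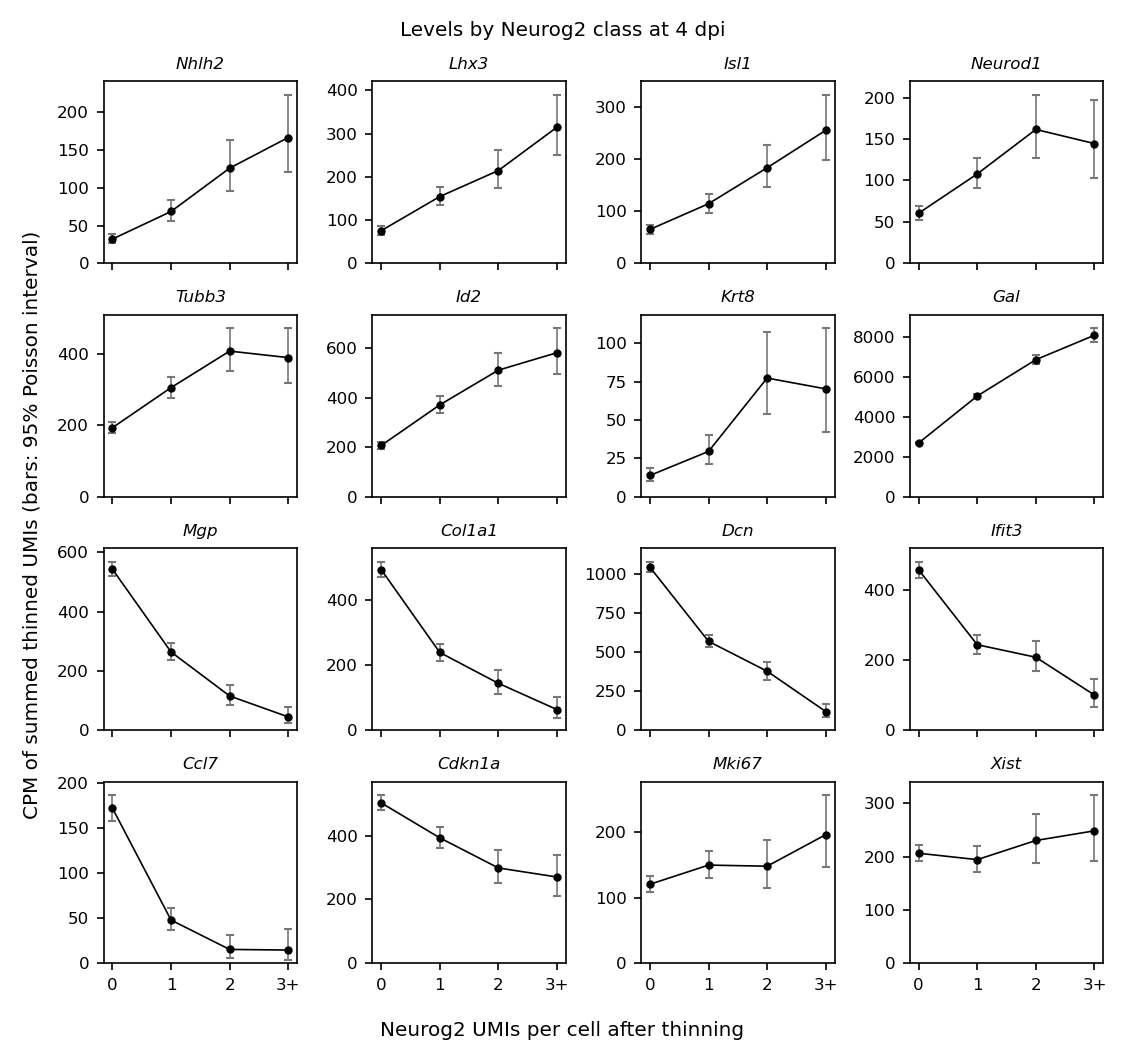
Level of 16 genes (CPM of summed thinned UMIs, y axis from 0, with a scale of its own per panel) in 4 dpi cells with 0, 1, 2 or 3 and more Neurog2 UMIs (x axis); points are sums over all cells of a class and bars 95% Poisson intervals. The intermediate class with 1 UMI lies between the groups for Nhlh2, Lhx3, Isl1 and Id2 as the level goes up and for Mgp, Col1a1, Dcn and Ifit3 as it goes down, while the intervals of all classes overlap for Xist.

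Genes of the neuronal cytoskeleton and of growing processes were mostly higher. Of 29 genes 17 passed the floor, 7 were higher by 1.5-fold or more and 1 lower by that much, with a median of 0.51. Tubb3, the neuronal beta-tubulin, was at 193 CPM with 0, 305 with 1, 407 with 2 and 389 with 3 or more Neurog2 UMIs. It had a UMI in 23.3% of cells with 0, 42.9% with 2 or more and 7.39% of reference cells. Ina was at 111 and 40.1 CPM, Crmp1, which acts in growth-cone guidance, at 29.1 and 11.8 CPM and the tubulin Tubb2b at 201 and 89.1 CPM. The exception was Gap43, a growth-cone protein, which was lower at 91.4 against 206 CPM, a ratio of -1.17 (-1.56 to -0.80). Gap43 had a UMI in 34.5% of reference cells, so fibroblast-rich cells held it too. Dcx, a microtubule protein of newly formed neurons, was low in both groups, at 24.9 and 8.85 CPM (18 and 30 UMIs), a ratio of 1.49 (0.56 to 2.38). Stmn2, a tubulin-binding protein of growing axons, was at 8.31 and 3.24 CPM (6 and 11 UMIs), a ratio of 1.36 (-0.36 to 2.92).

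Neuronal RNA-binding and synaptic genes gave a median of 0.90 over the 13 of 30 that passed the floor, with 8 higher by 1.5-fold or more and 1 lower by that much. Elavl4 was at 158 and 55.5 CPM with a share of 1.41% in reference cells. Rab3a, a vesicle GTPase, was at 40.2 and 14.2 CPM, but in the UMIs set aside by thinning its ratio was -0.0046. Chgb, a granin of secretory granules, was at 65.1 and 20.6 CPM, but 5 cells held 66.0% of its UMIs in the higher group, and it was at 14.8 CPM in the cells with 3 or more Neurog2 UMIs. The member that was lower was Thy1, which fibroblasts also express. Galanin, a neuropeptide that injured and regenerating neurons make, was at 2696 CPM with 0, 5050 with 1, 6874 with 2 and 8100 with 3 or more, and had a UMI in 38.2% and 65.1% of the groups and in 10.2% of reference cells.

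Motor neuron genes beyond the cassette showed little. Of 27 genes 10 passed the floor, with 2 at least 1.5-fold higher, 1 at least 1.5-fold lower and a median of 0.25. Foxp1, a factor of limb-innervating motor neurons, was at 125 and 67.8 CPM, a ratio of 0.88 (0.51 to 1.24). The axon-guidance receptors Robo2 and Robo1 had ratios of 0.65 (-0.07 to 1.32) and 0.47 (0.14 to 0.79), and that of Robo2 was -0.62 in cells without Tubb3. Slc5a7, the choline transporter, was lower, at 18.0 against 50.1 CPM, and had a UMI in 20.4% of reference cells.

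**Figure D4:**
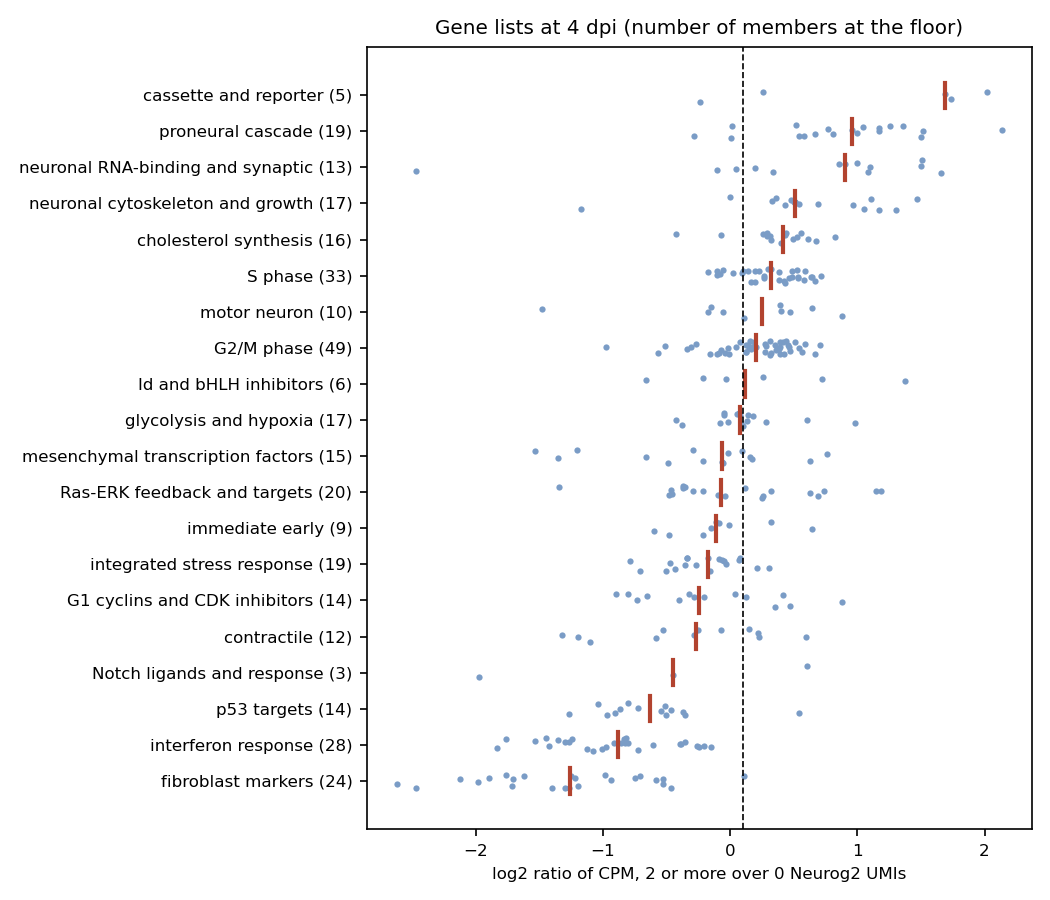
log2 ratio of CPM, cells with 2 or more over cells with 0 Neurog2 UMIs (x axis), for each member at the floor of 20 gene lists at 4 dpi (y axis, number of members in brackets); the short vertical bars are list medians and the dashed line the median of all 6146 features, 0.10. Medians run from 1.69 for the cassette and reporter list to -1.26 for fibroblast markers.

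Fibroblast markers were lower almost throughout, and they stood at the bottom of all lists. Of 25 genes 24 passed the floor, 19 were lower by 1.5-fold or more and 0 higher by that much, with a median of -1.26. A median cell had 22 UMIs of the list with 0 Neurog2 UMIs, 16 with 1, 12 with 2 and 10 with 3 or more. Mgp, a matrix Gla protein, was at 543, 264, 115 and 44.4 CPM over these classes. Col1a1, the main fibrillar collagen chain, was at 494, 239, 144 and 63.0 CPM, and Dcn, the proteoglycan decorin, at 1041, 567, 376 and 119 CPM. Each gene was lower at every step. Col3a1 was at 1321 CPM with 0 and 537 CPM with 2 or more, a ratio of -1.30 (-1.45 to -1.15). Outside this list, the imprinted H19 had 8 UMIs in the 361 cells against 445 in the 1695, and was found in 32.4% of reference cells.

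Cells with 2 or more Neurog2 UMIs were fewer where fibroblast-marker UMIs were more. Whether this is a graded change or a changing mix of distinct cells was not tested. Cells were ordered by fibroblast-marker UMIs and cut into 5 bins of 448 to 653 cells. The share of cells with 2 or more Neurog2 UMIs was 24.7% in the lowest bin (21.4 to 28.1), 19.4%, 11.6% and 5.38% in the next, and 3.38% in the highest (2.02 to 5.29). The Neurog2 level in the unused UMIs went the same way, from 499 CPM to 411, 306, 208 and 139 CPM. The share of cells with a Tubb3 UMI went from 42.0% in the lowest bin to 12.6% in the highest. Median depth before thinning in the bins lay between 2692 and 3272 UMIs and was lowest in the bin with the most marker UMIs. Of the 361 cells with 2 or more Neurog2 UMIs, 7 were among the reference cells, 1.94%, against 246 of the 1695, 14.5%. The same markers summed over a cell cannot tell a cell that has lost fibroblast transcripts from one that never held many.

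Mesenchymal transcription factors were mostly less than 1.5-fold apart. Of 25 genes 15 passed the floor, with 4 at least 1.5-fold lower, 2 at least 1.5-fold higher, 9 between and a median of -0.07. Among all features, 7.24% were lower and 9.94% higher by that much. Prrx2, Osr2 and Snai2, factors of limb mesenchyme and of epithelial-to-mesenchymal transition, had ratios of -1.53 (-2.63 to -0.61), -1.35 (-2.16 to -0.64) and -1.21 (-1.99 to -0.51). Runx2, the osteoblast factor, was higher at 42.9 against 25.4 CPM, a ratio of 0.76 (0.12 to 1.37). Contractile genes gave 3 of 12 at least 1.5-fold lower, 1 higher and a median of -0.27. Acta2, smooth-muscle actin, was at 52.6 and 113 CPM, Tagln at 20.8 and 51.9 CPM and the tropomyosin Tpm2 at 83.1 and 190 CPM.

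Interferon-response genes were lower in all 28 members at the floor. Of 31 listed genes 29 were in the count table and 28 passed the floor, 21 were lower by 1.5-fold or more and 0 higher by that much, with a median of -0.88. A median cell had 18 UMIs of the list with 0 Neurog2 UMIs and 8 with 2 or more. Ifit3, an antiviral protein induced by interferon, was at 458, 244, 208 and 100 CPM over the classes 0, 1, 2 and 3 or more. Gbp2, a guanylate-binding protein, was at 18.0 and 61.1 CPM, and Psmb8, an immunoproteasome subunit, at 36.0 and 104 CPM. Genes of the same kind outside the list were Ifi204 (19.4 and 121 CPM) and Parp14 (19.4 and 89.1 CPM). The chemokine gene Ccl7 was at 15.2 and 172 CPM, and was found in 2.49% and 12.4% of the groups. Ccl7 and Ifit3 had a UMI in 41.9% and 68.7% of reference cells, so these genes and the fibroblast markers were high in the same cells.

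Cell-cycle genes were level to slightly higher in cells with 2 or more Neurog2 UMIs. Of 43 S-phase genes 33 passed the floor, with 5 at least 1.5-fold higher, 0 lower and a median of 0.32. Of 53 G2/M genes 49 passed, with 3 higher, 1 lower and a median of 0.20. Of all features 9.94% were higher and 7.24% lower by that much, with a median of 0.10. Mki67, a marker of dividing cells, was at 166 and 121 CPM, a ratio of 0.46 (0.16 to 0.76), and Top2a, which untangles replicated DNA, at 277 and 208 CPM, a ratio of 0.42 (0.18 to 0.64). A Mki67 or Top2a UMI was present in 38.2% and 32.0% of the groups. All cells had passed the low CellTrace gate, which selects cells that have divided. Of 17 G1 cyclins and CDK inhibitors 14 passed the floor, 4 were at least 1.5-fold lower and 1 higher. Cdkn1a, the inhibitor p21, was at 502, 393, 299 and 270 CPM over the classes, and Cdkn2b, the inhibitor p15, at 92.8 against 173 CPM. Ccnd2, cyclin D2, was at 238 against 395 CPM, and Ccne1, cyclin E1, which drives entry into S phase, was higher at 55.4 against 30.1 CPM.

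Targets of p53 were lower, and feedback genes and targets of the Ras-ERK pathway were mostly less than 1.5-fold apart. Of 20 p53 targets 14 passed the floor, with 7 at least 1.5-fold lower, 0 higher and a median of -0.63. Phlda3, an inhibitor of AKT, was at 84.5 and 203 CPM, Zmat3 at 47.1 and 96.8 CPM and the kinase Plk2 at 45.7 and 89.4 CPM. The p53 fragment in DDRR could not be counted apart from Trp53. Of 24 Ras-ERK genes 20 passed the floor, with 5 at least 1.5-fold higher, 1 lower, 14 between and a median of -0.07. Among all features, 9.94% were higher and 7.24% lower by that much. Dusp4, a phosphatase of ERK, was at 187 and 84.4 CPM, a ratio of 1.15 (0.84 to 1.45), and the ETS factor Etv4 at 41.6 and 18.3 CPM. Emp1, a membrane protein, was lower at 54.0 against 137 CPM, and had a UMI in 44.0% of reference cells.

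Markers of other cell types were few. None of the 13 immune and 9 endothelial markers passed the floor, and summed they stood at 9.70 and 15.2 CPM with 2 or more Neurog2 UMIs and at 23.6 and 26.3 CPM with 0. Of the myogenic list 1 gene did, the acetylcholine receptor subunit Chrna1, with a ratio of 0.36 (0.04 to 0.68), and of the glial and progenitor list 2 did, Nes at -0.11 (-0.88 to 0.60) and Sox2 at 0.45 (-0.26 to 1.11). Of the 11 epithelial markers 2 passed, the simple-epithelial keratins Krt8 and Krt18. Krt8 was at 74.8 CPM against 13.9 CPM, a ratio of 2.43 (1.84 to 3.03), from 54 and 47 UMIs, which is above the ratio of Nhlh2. It had a UMI in 7.20% and 1.59% of the groups and in none of the reference cells, and 5 cells held 42.6% of its UMIs in the higher group. Krt18 was at 48.5 and 13.0 CPM, with 74.3% of its UMIs in 5 cells. Xist, used as a control gene without a role in this programme, was at 237 and 206 CPM, a ratio of 0.20 (-0.05 to 0.44).

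Because the groups also differ in Lhx3 and Isl1, Tubb3, fibroblast content and depth, the comparison was repeated within subsets of cells chosen after the data were seen. Among cells with a Lhx3 or Isl1 UMI (191 and 365 cells), Nhlh2 kept a ratio of 1.43 (0.85 to 2.02), whereas v.EGFP was at 183 and 225 CPM, a ratio of -0.29 (-0.72 to 0.12). In that subset the fibroblast and interferon medians were -0.99 and -0.74, but those of the neuronal cytoskeleton and RNA-binding and synaptic lists were 0.07 and 0.27. Tubb3 was counted before thinning for its subsets, which therefore depend on depth. After thinning, 155 and 395 cells had a Tubb3 UMI. Among cells without a Tubb3 UMI before thinning (171 and 1151 cells) Nhlh2 was at 99.4 and 16.9 CPM. Its ratio was 2.55 (1.85 to 3.25), and the fibroblast median was -1.12. Among cells with one (190 and 544 cells) the Nhlh2 ratio was 1.48 (0.97 to 1.98) and the fibroblast median -1.14. The differences in Nhlh2 and in fibroblast genes were thus present in cells both with and without a Tubb3 UMI before thinning. These subsets divide the same cells whose ratios picked Nhlh2, so they are no independent check of it.

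In the 280 and 720 cells with fewer fibroblast-marker UMIs, the differences in fibroblast and interferon genes were smaller. The fibroblast median was -0.31 there, where the same markers chose the cells, and the interferon median -0.47. Ccl7 had 6 and 13 UMIs and a ratio of 0.25 (-1.43 to 1.74), so that its difference in all cells was not found in this subset. Ifit3 was at 129 and 254 CPM, a ratio of -0.98 (-1.37 to -0.62), and Ifi204 was at -2.85. Acta2 had a ratio of 0.14 in this subset. On the higher side Nhlh2 was at 1.39 (0.96 to 1.83), Lhx3 at 1.36 (1.03 to 1.70) and Krt8 at 1.80 (1.18 to 2.42). Among the 169 and 858 cells with under 3000 UMIs before thinning, the fibroblast, interferon and proneural medians were -1.37, -0.96 and 1.12.

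The 14 dpi libraries were split in the same way, in cells that had no part in choosing the 30 genes. Of the 15 genes highest at 4 dpi, 13 were higher by some amount with supplements and 15 without, where 58.7% and 61.7% of all features were. At least 1.5-fold higher were 7 and 13, against 19.0% and 25.1% of all features. Of the 15 lowest, 12 passed the floor with supplements and 11 without. All 12 were lower with supplements, 11 of them at least 1.5-fold, and 10 of the 11 were lower without supplements, all 10 at least 1.5-fold, against 10.6% and 12.8% of all features. The exception was Thy1, at 73.7 and 68.3 CPM without supplements. The cells with 2 or more Neurog2 UMIs were also deeper before thinning at 14 dpi, with medians of 16309 against 14363 UMIs with supplements and 15253 against 10671 without. The part of this gap in the ratios was not tested.

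Lhx3 and Isl1 were higher with Neurog2 at both times. At 14 dpi Lhx3 had ratios of 1.55 (1.10 to 1.98) with supplements and 1.37 (0.72 to 1.96) without, and Isl1 of 1.34 (0.82 to 1.83) and 1.14 (0.47 to 1.75). Nhlh2 was at 529 and 278 CPM with supplements and at 537 and 268 CPM without, ratios of 0.93 and 1.00 against 2.14 at 4 dpi. The reporter v.EGFP was at 2466 and 2536 CPM with supplements and at 2858 and 1760 CPM without, in cells sorted for that reporter. The fibroblast list was lower in both, with medians of -1.58 (17 of 23 genes at least 1.5-fold lower) and -1.90 (22 of 24). The interferon list had medians of -0.59 and -0.72, and the proneural list 0.37 and 0.76. Gap43, lower at 4 dpi, was higher at 14 dpi, with ratios of 0.53 (0.39 to 0.67) and 0.57 (0.34 to 0.78). The S-phase median was 0.10 with supplements and -0.52 without, over 14 and 12 genes at the floor.

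**Figure D5:**
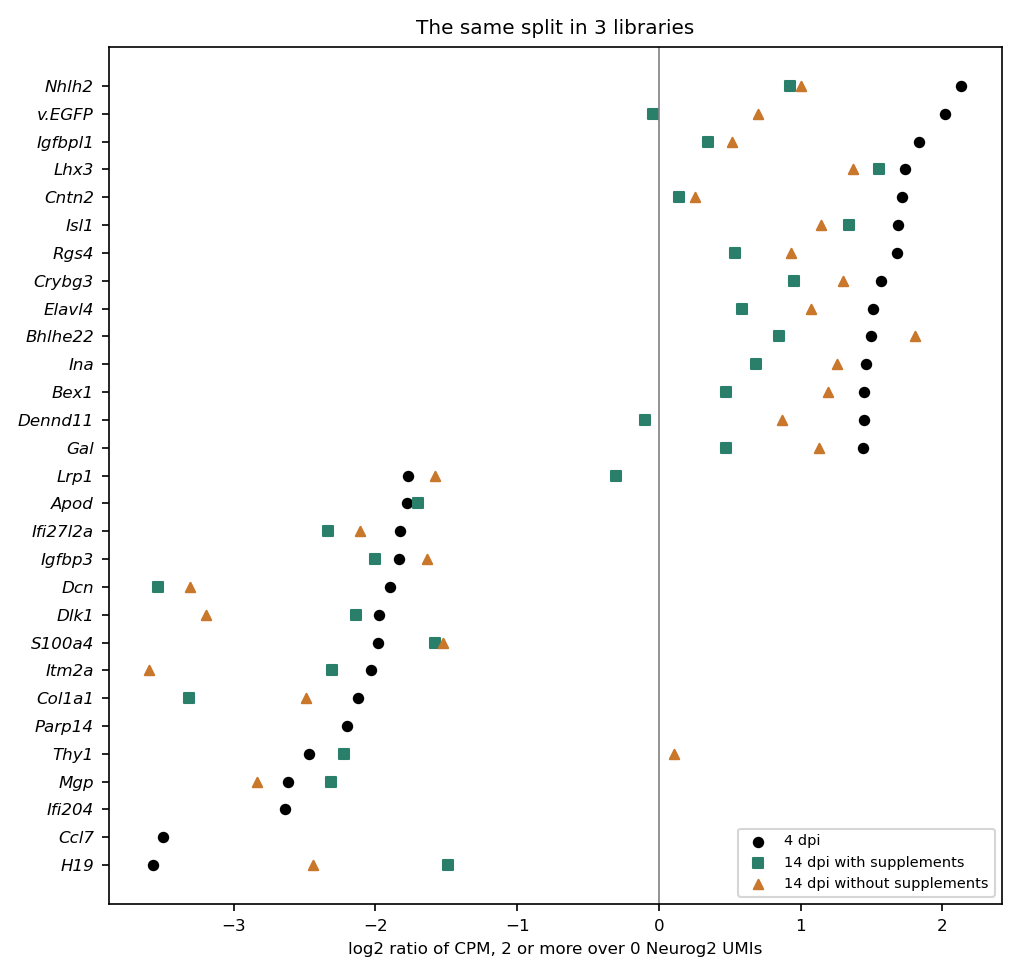
log2 ratio of CPM, cells with 2 or more over cells with 0 Neurog2 UMIs (x axis), for 29 of the 30 genes chosen from 4 dpi (y axis) in the 4 dpi library (black circles) and the 14 dpi libraries with (green squares) and without supplements (orange triangles); genes under the floor in a library have no symbol there. The 4 dpi ratios chose the genes and are therefore extreme by construction, while the 14 dpi symbols lie on the same side in most cases, with Thy1 without supplements, Dennd11 and v.EGFP with supplements as exceptions.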

How the data were processed

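The authors deposited UMI counts per gene and cell barcode from 10x Genomics 3′ v3.1 libraries, with Cell Ranger 6.1.1 named in the file headers, on build GRCm39 per the submitters' processing notes. Alignment and cell-calling settings are not given in the sources used here. The deposited counts of 31783 features were summed to 31744 symbols. Totals were 12290301 UMIs at 4 dpi and 37112015 and 46150432 at 14 dpi with and without supplements.

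Kept cells with at least 2000 UMIs were thinned without replacement to 2000 UMIs (seed 1). Levels are CPM of the UMIs summed over a group's cells. Ratios carry a 95% Clopper-Pearson interval for how a gene's UMIs divide between the groups, levels an exact Poisson interval and shares an exact binomial one. These cover counting error only, and UMIs of 1 cell are not independent. A count of 0 was set to 3, so that S100a4 at 14 dpi without supplements and Apod with them have bounds. Features with a mean of both groups' CPM of at least 20 were compared.

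The cells, the 25 gene lists and the rules were chosen with earlier results of these data known. Named genes are the 15 highest and 15 lowest ratios at 50 CPM or more whose interval leaves out a ratio of 1, and from each list the 4 largest plus set markers. Values of 2 genes that met the rule are not reported here, though they enter the counts and medians. Scrublet called 2 doublets of 4492 cells, which is not a working call, so no cell was removed, and an alternative left out the 171 cells with the highest scores. Other alternatives changed seed, depth, Neurog2 threshold, UMIs compared, filters, dividing cells, scaling, floor and fold. A further 5 subsets of cells were added after seeing the data. The Tubb3 subsets, and the alternative without cells holding a Mki67 or Top2a UMI, were chosen on UMIs before thinning. The Lhx3 or Isl1 subset was chosen on thinned UMIs. Tools were Python 3.11.15, numpy 2.4.6, scipy 1.17.1, pandas 2.3.3 and scanpy 1.11.5.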

Additional observations from a re-analysis of the deposited data

Results flagged for a closer look

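Of the genes named here, 5 were at least 1.5-fold apart in opposite directions at 4 and 14 dpi, with both intervals leaving out a ratio of 1. These differences between libraries were not tested, since each has no replicate. They were found by searching all named genes in both 14 dpi libraries, and each is given for the library where it appeared. The 14 dpi groups with 2 or more Neurog2 UMIs held 104 cells with supplements and 95 without. Levels such as 38.5 CPM there rest on few UMIs. Hes6, a bHLH protein of the proneural cascade, had a log2 ratio of 1.17 at 4 dpi and of -0.89 (-1.90 to -0.03) at 14 dpi with supplements, where it was at 52.9 and 97.7 CPM. Eda2r, a p53 target and death-domain receptor, had -0.90 at 4 dpi and 2.09 (0.76 to 3.25) at 14 dpi with supplements, at 38.5 and 9.01 CPM. Cdkn1a, the CDK inhibitor p21, had -0.80 at 4 dpi and 0.73 (0.31 to 1.12) at 14 dpi without supplements, at 289 and 174 CPM. Klf6, a zinc-finger factor, had 0.65 at 4 dpi and -1.18 (-2.40 to -0.19) at 14 dpi without supplements, at 42.1 and 95.2 CPM. Idi1 had 0.67 and -1.09 (-2.31 to -0.10), at 42.1 and 89.6 CPM. The 4 dpi ratio of Idi1 was -0.17 at a depth of 3000 UMIs and -0.035 in UMIs set aside by thinning. With less than 1.5-fold at one of the times, the intervals of Gap43 (-1.17 at 4 dpi, 0.53 and 0.57 at 14 dpi with and without supplements), Top2a (0.42 and -1.01 without) and Ccnd2 (-0.73 and 0.53 without) were also on opposite sides.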

How the results depend on the processing

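No paired analysis was possible because each group has 1 library. Over 17 settings, 2 of the 30 named genes changed direction in at least 1: v.EGFP (-0.29 in cells with a Lhx3 or Isl1 UMI) and Ccl7 (0.25 in the low-fibroblast cells). Of their 510 values 353 moved by less than the counting interval. Among other genes, Chgb was at -0.48 with 3 or more Neurog2 UMIs, -1.53 without Tubb3 and -0.65 with Lhx3 or Isl1, Notch1 at -0.31 without dividing cells and -0.057 without Tubb3, Rab3a at -0.0046 in UMIs set aside by thinning and Acta2 at 0.14 in the low-fibroblast cells. Twist2 was at 0.077 at 1500 UMIs and 0.35 with Lhx3 or Isl1, Robo2 at -0.62 without Tubb3 and -0.14 with Lhx3 or Isl1, and Idi1 at -0.17 at 3000 UMIs and -0.035 in UMIs set aside. Herpud1 was at 0.078 at 3000 UMIs and 0.24 with 3 or more Neurog2 UMIs, and Dnajb9 at 0.13 at 1500 UMIs and 0.17 in UMIs set aside. The cause was not tested.

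Counts of higher and lower features were 228 and 241 with 1 or more Neurog2 UMIs, 1064 and 691 with 3 or more, 1054 and 772 at 10 CPM, 216 and 188 at 50 CPM, 5993 and 1679 with no floor, and 144 and 166 at 2-fold. Higher features numbered 921 without dividing cells, 404 after centring, 963 without Tubb3 and 1005 under 3000 UMIs. Fewer cells or UMIs per feature widen the spread of ratios by construction.

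The interferon median was -0.64 with 1 or more Neurog2 UMIs. In the low-fibroblast cells it was -0.47, that of fibroblast markers -0.31 and that of the cytoskeleton list 0.33. The cytoskeleton median was 0.87 without dividing cells, 0.36 with Tubb3 and 0.073 with Lhx3 or Isl1, and the RNA-binding and synaptic median 0.17 without Tubb3 and 0.27 with Lhx3 or Isl1. The share of cells with 2 or more Neurog2 UMIs was 8.96% at 1500 UMIs and 22.6% at 3000, as depth sets how many UMIs can be seen. At 2000 UMIs per cell, genes near 20 CPM rest on few UMIs, and absence of Neurog2 cannot be read from 0.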

Other observations

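Genes of cholesterol synthesis were mildly higher in 4 dpi cells with 2 or more Neurog2 UMIs. Of 20 genes 16 passed the floor of 20 CPM, 3 were higher by 1.5-fold or more and 0 lower by that much, with a median log2 ratio of 0.42. Idi1, an isomerase of isoprenoid synthesis, was at 130 and 81.7 CPM, a ratio of 0.67 (0.32 to 1.01), but -0.035 in the UMIs set aside by thinning and -0.17 at a depth of 3000 UMIs. Stard4, which carries sterols between membranes, was at 78.9 and 51.6 CPM, a ratio of 0.61 (0.16 to 1.05).

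Glycolysis genes were near the median of all features, and the median of integrated stress response genes was somewhat lower. Of 25 glycolysis and hypoxia genes 17 passed the floor, with a median of 0.08, which lies under the shift of all features. At least 1.5-fold higher were 2 of the 17, where 9.94% of all features were. Egln3, a prolyl hydroxylase that marks HIF for decay, was at 116 and 59.0 CPM, a ratio of 0.98 (0.59 to 1.35). Of 21 integrated stress response genes 19 passed, with a median of -0.17. At least 1.5-fold lower were 2 of the 19, where 7.24% of all features were. These were Herpud1 at -0.79 (-1.61 to -0.06) and Dnajb9 at -0.71 (-1.71 to 0.17). Both named genes changed direction under other settings. Of 17 immediate early genes 9 passed, with a median of -0.11, and Klf6 and Egr1 had ratios of 0.65 (0.32 to 0.96) and -0.48 (-0.86 to -0.11).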
